A study of Mus musculus with 6 samples.

Results

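Calcium signals start development in the mouse egg, and 10 genes whose products release, pump or admit that calcium are described here: the IP3 receptor genes Itpr1, Itpr2 and Itpr3, the pump genes Atp2a2 and Atp2b1, the store sensor gene Stim1 and the plasma membrane channel genes Orai1, Trpm7, Trpv3 and Cacna1h. They were chosen by function, with earlier results of these data known. Probe sets were used that the platform annotation maps to exactly 1 of these genes. Of the 10 genes, 9 had such a probe set, 1 each, among 19938 genes measured. No probe set was named for Itpr1, known as the main IP3 receptor of mouse eggs, so Itpr1 was not analysed here.

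RNA came from fully-grown oocytes at the germinal-vesicle stage, which the labels call transcriptionally silent, and each of 6 samples was hybridised to 1 array. The 3 wild-type samples (Marf1+/+) and the 3 mutant samples (Marf1 ENU/ENU, a chemically induced mutation on both copies) came from females with the strain label C57BL/6J;C3HeB/FeJ. In both groups the mice were primed at 21 days of age with 5 IU of equine chorionic gonadotropin for 46 hours, and the oocytes were labelled as coming from 23-day-old animals. The surrounding cumulus cells were removed by pipetting before RNA was extracted. The labels do not say how many oocytes or animals a sample held or whether the samples are independent animals. A p-value here therefore reflects sample-to-sample spread that could be technical. A lower level in every oocyte and a loss from some of them cannot be told apart in such samples.

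At fertilisation, a phospholipase C brought in by the sperm cleaves the membrane lipid PIP2 into IP3, which opens IP3 receptors on the endoplasmic reticulum. The released calcium is returned to the store by the pump SERCA2, encoded by Atp2a2, and expelled across the plasma membrane by PMCA1, encoded by Atp2b1. Repeated oscillations need calcium to enter from outside, and in the mouse egg this entry is known to run through channels that include TRPM7 and the T-type channel CaV3.2. STIM1 and ORAI1 are the sensor and pore of store-operated calcium entry in other cells. TRPV3 is a calcium-permeable channel of maturing oocytes, known as the route by which strontium activates mouse eggs.

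Trpv3 rose in the mutant oocytes, 2.56-fold, and was the only one of the 9 genes past the threshold. Trpm7 and Stim1 had higher values on every mutant array than on any wild-type array but did not pass, with log2 differences (mutant minus wild type) of 0.83 and 0.54. Itpr2 lay lower on every mutant array and did not pass either (-0.40). For Itpr3, Atp2a2, Atp2b1, Orai1 and Cacna1h the genotypes overlapped. All values are RMA log2 expression per probe set, which are relative within an array, so a change in total RNA per oocyte would not show. The threshold was a limma p-value, adjusted over all 35556 probe sets, under 0.05.

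These counts lay near those of the array as a whole. The 1 gene of 9 past the threshold is 11.1%, where 10.4% of all genes passed in either direction and 6.40% were higher. Among the 12397 genes whose mean level reached that of olfactory and vomeronasal receptor genes, as that of each of the 9 did, 16.2% passed. This receptor-gene level was 4.51 on the log2 scale, the 95th percentile of 1190 such genes, and serves as a description of a dim signal. Groups that did not overlap were seen for 4 of the 9 genes, 3 above and 1 below, against 30.7% of all genes and 42.5% of those at or above the receptor-gene level. The median log2 difference of the 9 genes was 0.16, against -0.04 over all genes and -0.09 over those at or above the receptor-gene level.

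The DNA just upstream of the annotated starts of Trpv3, Trpm7 and Stim1 is printed because these are the 3 genes with every mutant value above every wild-type value. Each run is the 250 bases before the start that RefSeq gives (GRCm38.p6), 5′ to 3′ along the gene. Capitals mark CACGTG, a form of E-box that reads the same on both strands, and GGGCGG or its reverse CCGCCC, the GC box.
Trpv3, chr11:73267270-73267519, plus strand: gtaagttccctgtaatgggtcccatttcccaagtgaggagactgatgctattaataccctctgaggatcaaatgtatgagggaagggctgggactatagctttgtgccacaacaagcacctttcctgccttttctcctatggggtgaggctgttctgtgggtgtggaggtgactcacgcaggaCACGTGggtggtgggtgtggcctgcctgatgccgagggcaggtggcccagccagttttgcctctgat
Trpm7, chr2:126876262-126876511, minus strand: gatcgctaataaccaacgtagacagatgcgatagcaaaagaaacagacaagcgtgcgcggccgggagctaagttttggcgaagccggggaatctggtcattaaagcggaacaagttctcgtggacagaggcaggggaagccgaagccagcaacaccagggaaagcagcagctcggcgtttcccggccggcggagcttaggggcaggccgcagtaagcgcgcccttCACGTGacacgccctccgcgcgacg
Stim1, chr7:102267569-102267818, plus strand: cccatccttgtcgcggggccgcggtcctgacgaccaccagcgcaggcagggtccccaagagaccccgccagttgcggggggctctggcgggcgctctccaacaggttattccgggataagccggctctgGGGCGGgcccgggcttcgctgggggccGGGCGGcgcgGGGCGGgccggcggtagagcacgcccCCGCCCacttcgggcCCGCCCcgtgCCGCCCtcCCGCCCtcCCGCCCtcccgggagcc

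The windows of Trpv3 and Trpm7 each held 1 CACGTG, beginning 67 and 25 bases before the start, and 0 GC boxes. The window of Stim1 held 8 GC boxes, none overlapping, and 0 CACGTG. Its share of G and C was 78.4%, against 54.4% for Trpv3, 60.4% for Trpm7 and a median of 52.4% over all 32851 windows. Over those windows 6.02% held CACGTG and 32.7% a GC box. Of the 8 windows of the 7 genes with an entry (Atp2b1 has 2), 3 held CACGTG, the other being that of Itpr3, a gene without a difference here, and 6 held a GC box. No member window held TATAAA (0 of 8, against 12.4% of all) or TAATTG, the letters of a NOBOX element (0 of 8, against 7.17%), and 2 held CCAAT (33.8% of all), with every motif counted on both strands. These matches describe the letters of the window, and which start oocytes use was not tested.

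**Figure D1:**
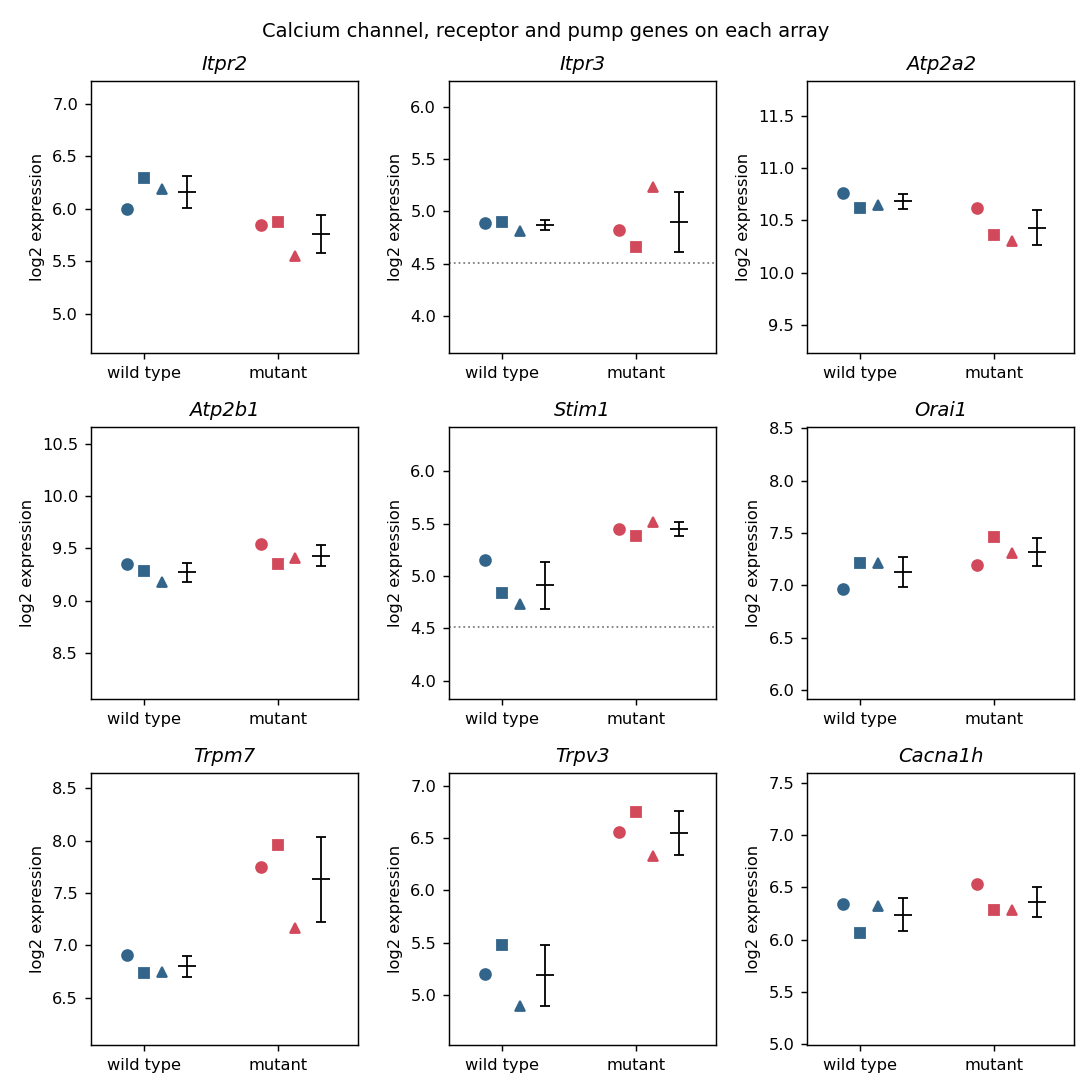
Log2 expression (vertical axis) of the 9 measured genes on each array, wild type in blue and mutant in red, with circles, squares and triangles for replicates 1, 2 and 3; black bars are mean ± SD (n = 3), every panel spans the same height, and the dotted line in the Itpr3 and Stim1 panels is the receptor-gene level of 4.51. The Trpv3 groups lie apart, from 4.90 to 5.48 in wild type and from 6.33 to 6.75 in the mutant, and the Trpm7 mutant values spread more widely than its wild-type values.

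Among the channels of the plasma membrane, Trpv3 (probe set 10378367) read 5.20, 5.48 and 4.90 on wild-type arrays 1 to 3 and 6.56, 6.75 and 6.33 on mutant arrays 1 to 3. The lowest mutant value stood 0.85 log2 units above the highest wild-type value. The means were 5.19 ± 0.29 and 6.55 ± 0.21 (SD, n = 3 each), a log2 difference of 1.35 (SE 0.19, 95% interval 0.90 to 1.80, adjusted p = 0.00568). Trpv3 stayed past the threshold in each of the 15 alternative settings that apply to a gene with 1 probe set, including every fit that left out 1 array, where its adjusted p lay between 0.00779 and 0.0289. A rise as large or larger was found in 617 of the 12397 genes at or above the receptor-gene level (4.98%).

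Trpm7 (probe set 10487277), which encodes a channel for magnesium and calcium fused to a protein kinase, read 6.91, 6.74 and 6.75 in wild type and 7.75, 7.96 and 7.17 in the mutant. The mutant arrays were all higher, and mutant replicate 3 stood closest to wild type, 0.26 above the highest wild-type value. The means were 6.80 ± 0.10 and 7.63 ± 0.41 (SD, n = 3 each), a log2 difference of 0.83 (SE 0.21, 95% interval 0.33 to 1.32, adjusted p = 0.0609). Without mutant replicate 3 the difference was 1.05 and the adjusted p 0.00759. That array correlated less with the other mutant arrays (r = 0.970 and 0.973 over probe sets) than those did with each other (0.985). Its values had a median of 4.76 and an SD of 2.04 over probe sets, against 4.56 to 4.67 and 2.14 to 2.20 on the other arrays.

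Cacna1h (probe set 10448925), the gene of the T-type channel CaV3.2, read 6.34, 6.06 and 6.32 in wild type and 6.53, 6.28 and 6.28 in the mutant. The groups overlapped, and the difference was 0.12 (SE 0.15, 95% interval -0.23 to 0.47, adjusted p = 0.763). Orai1 (probe set 10525464), the pore of store-operated entry, read 6.97, 7.21 and 7.21 in wild type and 7.20, 7.46 and 7.31 in the mutant. These groups overlapped too, with a difference of 0.19 (SE 0.15, 95% interval -0.15 to 0.53, adjusted p = 0.575).

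Stim1 (probe set 10555681), which senses the filling of the store, read 5.15, 4.84 and 4.73 in wild type and 5.45, 5.38 and 5.52 in the mutant. Every mutant value was higher, and the wild-type arrays spread more widely (a range of 0.42) than the mutant arrays (0.14). The difference was 0.54 (SE 0.16, 95% interval 0.18 to 0.90, adjusted p = 0.0841). Its wild-type mean, 4.91 ± 0.22 (SD, n = 3), lay near the receptor-gene level.

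Of the IP3 receptors, Itpr2 (probe set 10549282) read 6.00, 6.29 and 6.19 in wild type and 5.85, 5.87 and 5.55 in the mutant. All mutant values were lower, by a gap of 0.13. The difference of -0.40 (SE 0.16, 95% interval -0.77 to -0.04) had an unadjusted p of 0.0336 and an adjusted p of 0.198. Itpr3 (probe set 10443131) read 4.89, 4.90 and 4.81 in wild type and 4.82, 4.66 and 5.23 in the mutant, close to the receptor-gene level throughout. Its mutant values lay on both sides of wild type, and the difference was 0.04 (SE 0.17, 95% interval -0.37 to 0.44, adjusted p = 0.952). Without mutant replicate 3, the highest of the 6 values, the difference turned to -0.13.

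Both pumps gave a bright signal in both genotypes. Atp2a2 (probe set 10533483), the pump that refills the store, read 10.76, 10.62 and 10.65 in wild type and 10.62, 10.36 and 10.30 in the mutant. The groups met at 10.62, and the difference was -0.25 (SE 0.14, 95% interval -0.59 to 0.09, adjusted p = 0.422). Atp2b1 (probe set 10366004), the pump that expels calcium, read 9.35, 9.28 and 9.18 in wild type and 9.54, 9.35 and 9.41 in the mutant. These groups met at 9.35, with a difference of 0.16 (SE 0.13, 95% interval -0.15 to 0.47, adjusted p = 0.611). For 5 of the 9 genes, Itpr3, Atp2a2, Atp2b1, Orai1 and Cacna1h, the 95% interval included 0, and the widest of these bounds was -0.59, for Atp2a2. The intervals give differences compatible with the values and are not limits of detection. With 3 arrays a group larger differences could also miss the threshold, as that of Trpm7 did (0.83).

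**Figure D2:**
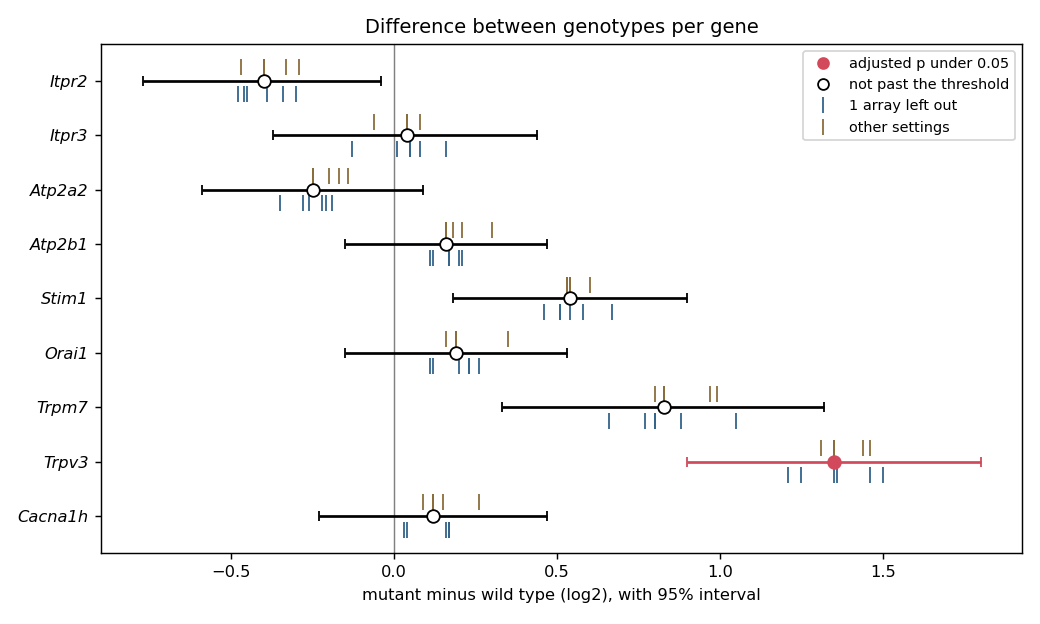
Mutant minus wild-type log2 difference of each gene (horizontal axis) with its unadjusted 95% interval; the filled red point passed the threshold and open points did not, blue ticks below each point are fits that left out 1 array, and brown ticks above are the other settings. Trpv3 stands at 1.35, clear of 0 in every setting, and the ticks of Itpr3 fall on both sides of 0.

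The genes whose 6 values followed Trpv3 most closely were Sesn1, a stress-response gene known as a p53 target, and Hdac4, a histone deacetylase. They were the closest 2 of 21788 single-gene probe sets by root mean square distance between mean-centred log2 values over the 6 arrays (0.0495 and 0.058). Sesn1 read 4.23, 4.46 and 4.00 in wild type and 5.67, 5.86 and 5.43 in the mutant, and Hdac4 4.61, 4.99 and 4.47 against 6.00, 6.30 and 5.79. In all 3 genes replicate 2 was the highest array of each genotype and replicate 3 the lowest. A choice by closeness over these same 6 values favours such a shared order. With 6 arrays in 2 genotypes any gene that rose by a like amount lies close by this measure, and the wild-type mean of Sesn1 lay below the receptor-gene level.

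Of 221 other genes of calcium handling and egg activation in 8 lists, 209 were measured. In all, 13 rose and 12 fell, or 12.0% together, against 10.4% of all genes (6.40% higher and 4.04% lower), and their median difference was -0.06. At an unadjusted p under 0.05 in limma there were 23 higher and 39 lower. The share of all genes at that cutoff is not given, here or for the lists below, so such counts cannot be compared with it. Each of the 6 fits without 1 array except that without mutant replicate 3 left far fewer calls, between 7 and 8 higher and between 2 and 5 lower, against 14 and 10 without mutant replicate 3. The calls of 9 genes held in all 6 of those fits: Gna11, Pip5k1a, Pi4ka, Pitpnb, Jph1, Atp2c2, Stimate, Prkca and Prkcd. The balance of directions depends on the scaling, since cyclic loess normalization gave 17 higher and 6 lower (73.9% higher, against 52.0% as deposited). Up to 4 changed genes with the largest difference are named per list, and other pathway genes were named for their role after their values were seen.

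Among the 8 lists, the largest changes lay in the supply of IP3. Of 31 genes for making and clearing IP3, 5 rose and 4 fell, with a median difference of -0.03. These calls are 29.0% of the list, where 10.4% of all genes and 16.2% of those at or above the receptor-gene level passed. Without mutant replicate 3 there were 6 higher and 2 lower. The calls of Pitpnb, Pip5k1a, Gna11 and Pi4ka held in every fit without 1 array. Those of Plcg2, Plce1, Inpp1, Pi4kb and Pitpna were lost in 5 or 6 of the 6 fits. The list was drawn up with earlier results of these data known. Pitpnb, which carries phosphatidylinositol between membranes, read 5.52, 4.56 and 5.15 in wild type and 9.37, 9.37 and 9.02 in the mutant, a rise of 4.18 (SE 0.25, adjusted p = 1.55e-04). Pip5k1a, a kinase that makes PIP2, read 6.15, 5.67 and 6.07 in wild type and 8.91, 8.85 and 8.26 in the mutant, a rise of 2.71 (SE 0.22, adjusted p = 4.65e-04). In both genes the genotypes lay far apart on every array.

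Gna11, a G protein subunit that activates phospholipase C beta, rose from 5.79 ± 0.44 to 7.30 ± 0.22 (SD, n = 3 each), by 1.51. Pi4ka, which makes the precursor of PIP2 at the plasma membrane, fell from 7.76 ± 0.15 to 6.52 ± 0.07, by 1.25. The sister genes Pi4kb (1.00) and Pitpna (-0.57) moved the other way from Pi4ka and Pitpnb, although both lost the call when single arrays were left out. Pitpna lost it in all 6 such fits and Pi4kb in 5. The sperm phospholipase gene Plcz1 lay far below the receptor-gene level in both genotypes, at 2.89 and 2.88. Gnaq, the close relative of Gna11, had a difference of 0.38 (adjusted p = 0.285).

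**Figure D3:**
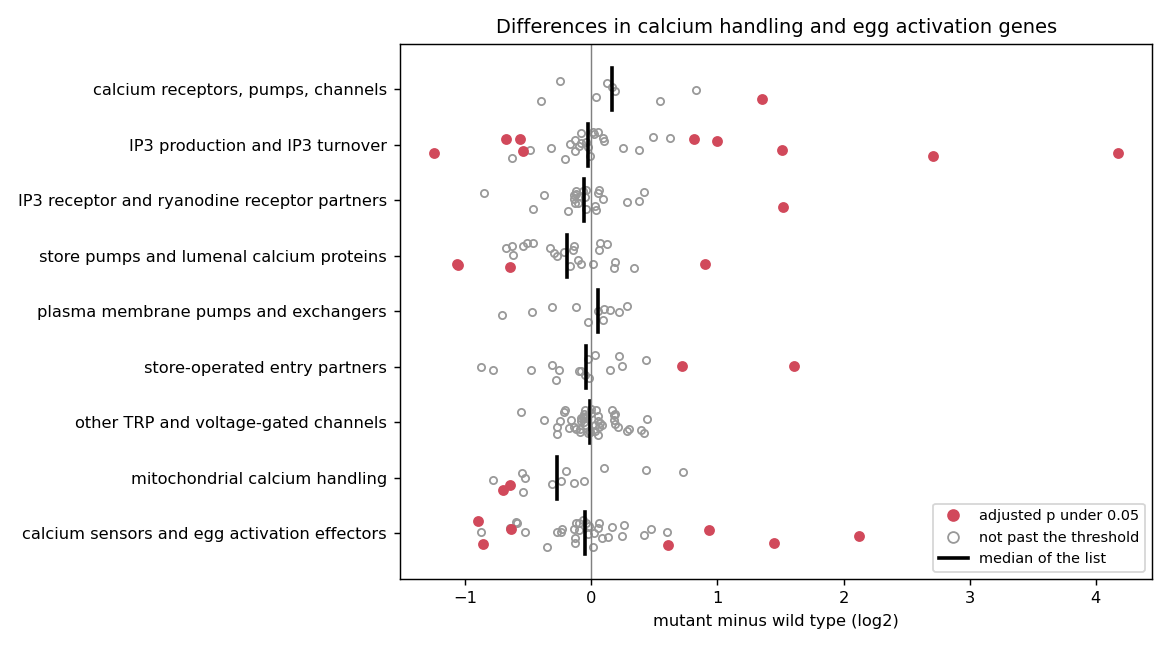
Mutant minus wild-type log2 difference (horizontal axis) of the 9 genes described above, in the top row, and of 209 other genes in 8 lists; red points passed the threshold, open grey points did not, and black bars are list medians. The changes farthest from 0, up to 4.18, lie in the IP3 production list. The row of other TRP and voltage-gated channels holds 0 red points among 47 genes, where 10.4% of all genes passed.

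Partners of the receptors and of store-operated entry changed in a few genes. Of 24 IP3 and ryanodine receptor partners 1 rose and 0 fell, 4.17% of the list, against 10.4% of all genes. The gene that rose was Jph1, a junctophilin that tethers the endoplasmic reticulum to the plasma membrane. Its brighter probe set read 7.54, 7.27 and 7.20 in wild type and 9.13, 8.85 and 8.60 in the mutant (1.52, SE 0.18, adjusted p = 0.00239), and its other probe set rose by 1.02. All 3 ryanodine receptor genes had means at or below 4.53 in both genotypes. Ahcyl1, which binds IP3 receptors and competes with IP3, had a difference of 0.42 (adjusted p = 0.153).

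Of 18 store-operated entry partners 2 rose and 0 fell, 11.1% of the list, against 10.4% of all genes. Stimate, a protein of the endoplasmic reticulum that promotes the activation of STIM1, read 4.27, 3.99 and 4.06 in wild type and 5.99, 5.52 and 5.65 in the mutant, a rise of 1.61 (SE 0.17, adjusted p = 0.00148). Its wild-type values lay below the receptor-gene level, so the rise may be a lower bound. Stim2, the other sensor of the store, rose from 9.04 ± 0.07 to 9.76 ± 0.22 (SD, n = 3 each), by 0.72, but was past the threshold in only 1 of the 6 fits without an array, that without mutant replicate 3. Orai2 lay below the receptor-gene level in both genotypes, and Orai3 had a difference of -0.48 (adjusted p = 0.258).

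Relatives of the TRP and T-type channels did not pass. In the list of 47 other TRP and voltage-gated channel genes 0 passed, against 10.4% of all genes. At an unadjusted p under 0.05 in limma 1 was higher and 2 lower. Of genes at or above the receptor-gene level 16.2% passed, but 28 of the 47 had a mean below that level. Trpv1, Trpv2, Trpv4, Trpv5 and Trpv6 had means between 3.78 and 4.38 in both genotypes, and the other measured TRPM genes between 3.54 and 4.43. The T-type channel genes Cacna1g and Cacna1i had differences of -0.09 and -0.18. Among 11 other plasma membrane pumps and exchangers 0 passed, with 0 higher and 2 lower at an unadjusted p under 0.05 in limma. The sodium-calcium exchanger genes Slc8a1, Slc8a2 and Slc8a3 lay below the receptor-gene level in both genotypes.

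More genes of the store lumen lay lower in the mutant than higher. Of 26 store pump and lumenal genes 1 rose and 3 fell, 15.4% of the list. Over all genes 10.4% passed, and 16.2% of those at or above the receptor-gene level. The median difference of the list was -0.20, against -0.09 over genes at or above that level. In the list 11 genes had every mutant value below every wild-type value (2 above). The share of genes with every mutant value below was 17.7% over all genes and 25.1% over those at or above the receptor-gene level. The disulfide isomerase genes Pdia3 and Pdia4 fell by 0.65 and 1.07, while Pdia6 of the same family rose by 0.90. The pump gene Atp2c2 of the secretory pathway fell from 6.92 ± 0.23 to 5.86 ± 0.06 (SD, n = 3 each), by 1.06. The calls of Pdia3, Pdia4 and Pdia6 were each lost in 1 or more of the fits without an array, and the second, dim probe set of Pdia4 had a difference of 0.06. Calr and Canx, which bind calcium in the store lumen or at its membrane, had differences of -0.30 and -0.33 and did not pass.

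Mitochondria take up part of each calcium release through a channel called the uniporter. Of 14 genes of mitochondrial calcium handling 0 rose and 2 fell, 14.3% of the list. Over all genes 10.4% passed, and 16.2% of those at or above the receptor-gene level. The median difference of the list was -0.28, against -0.09 over genes at or above that level. Mcur1, a regulator of the uniporter, fell by 0.70 and Smdt1, a subunit that links the pore to its gatekeepers, by 0.65. Mcur1 was past the threshold in 1 of the 6 fits without an array, that without mutant replicate 3, and Smdt1 in 0. The pore gene Mcu had a difference of -0.54 (adjusted p = 0.0608) and the gatekeeper Micu2 -0.78 (adjusted p = 0.0644), both with every mutant value below wild type. In the list of 14 genes 6 had every mutant value below and 2 above. The share with every mutant value below was 17.7% over all genes and 25.1% over those at or above the receptor-gene level.

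**Figure D4:**
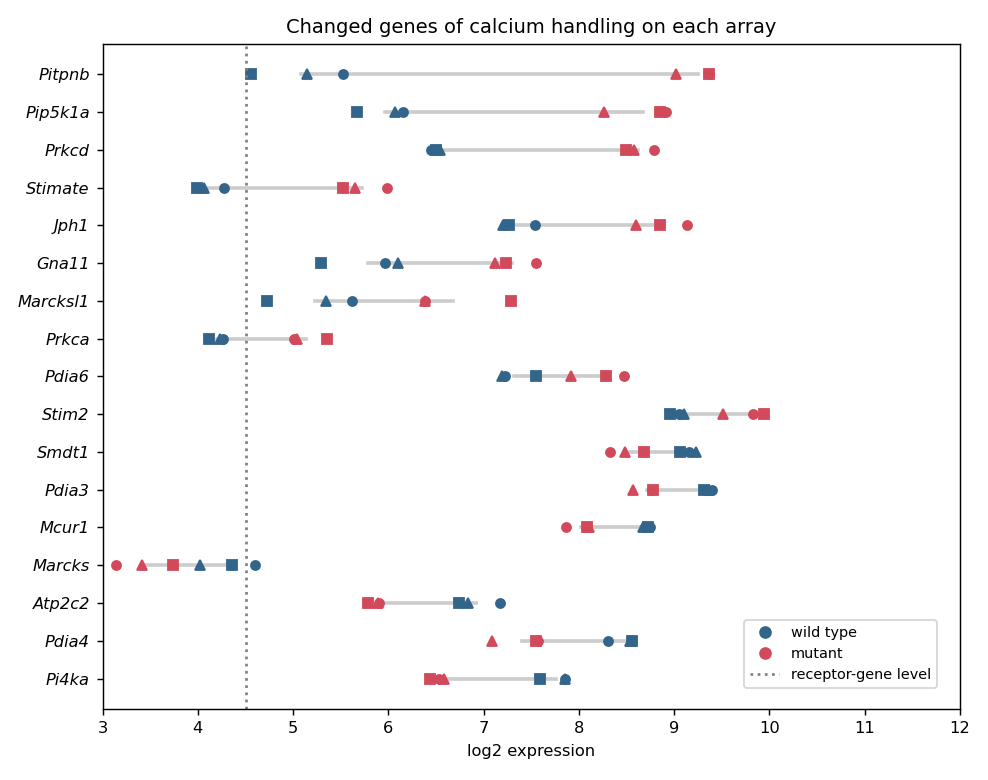
Log2 expression (horizontal axis) of the 17 pathway genes named by the rule on each array, wild type in blue and mutant in red, with circles, squares and triangles for replicates 1, 2 and 3; grey lines join the group means, and the dotted line is the receptor-gene level of 4.51. The genotypes do not overlap in any of the 17, and the Marcks values lie near or below the dotted line in both.

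Downstream of calcium, 4 of 38 sensors and egg activation effectors rose and 3 fell, 18.4% of the list. Over all genes 10.4% passed, and 16.2% of those at or above the receptor-gene level. Without mutant replicate 3 the list had 3 higher and 1 lower. Prkcd, a protein kinase C, read 6.45, 6.50 and 6.54 in wild type and 8.79, 8.49 and 8.58 in the mutant, a rise of 2.12 (SE 0.14, adjusted p = 2.13e-04). Prkca, a calcium-responsive protein kinase C, rose by 0.93 from a wild-type mean of 4.20, below the receptor-gene level. The protein kinase C substrate Marcksl1 rose by 1.45 and its relative Marcks, dim in both genotypes, fell by 0.90, and each lost the call in 5 of the 6 fits without an array. Astl, the cortical granule protease that cleaves a zona pellucida protein at fertilisation, fell from 7.45 ± 0.14 to 6.58 ± 0.16 (SD, n = 3 each), by 0.86, and lost the call without wild-type replicate 1 or 3.

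The calcium-dependent release from arrest after fertilisation runs through calmodulin, the kinase CaMKII gamma and the inhibitor Emi2. Calm2 had a difference of 0.02, Fbxo43, which encodes Emi2, of -0.35 (adjusted p = 0.222), and Wee2, a kinase of the same exit, of -0.27 (adjusted p = 0.542). Camk2g read 8.45, 8.20 and 8.43 in wild type and 7.90, 7.99 and 7.23 in the mutant, a difference of -0.65 (SE 0.22, adjusted p = 0.137). None of these 4 genes passed the threshold.

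Marf1 itself read 9.21, 9.16 and 9.31 on the wild-type arrays and 5.98, 6.40 and 6.16 on the mutant arrays (adjusted p = 1.00e-04). The sources used here do not place its probes relative to the mutation, so the labels are checked only in part. Of 13 oocyte markers, all above the receptor-gene level, 0 passed, with 0 higher and 2 lower at an unadjusted p under 0.05 in limma. Their summed level, the log2 of the added unlogged values, ranged from 14.34 to 14.51 in wild type and from 14.12 to 14.42 in the mutant. The summed level of 21 cumulus and granulosa markers was higher in the mutant, 10.57 to 10.87 against 9.73 to 9.88. Such a sum is weighted to bright genes, and its rise lay mostly in Nr5a2, the brightest marker, which rose from 8.71 to 10.17. The list as a whole was not raised. The median difference of the list was -0.09, with 2 markers above, 4 below and 15 overlapping. Groups that did not overlap were seen for 30.7% of all genes and 42.5% of those at or above the receptor-gene level. Kitl rose by 1.94 from a wild-type mean of 3.72, below the receptor-gene level, and Ptgs2 fell by 1.00, a call lost in 5 of the 6 fits without an array. Of the 21, 9 lay below the receptor-gene level in both genotypes, among them Amh, Amhr2, Fshr, Cyp11a1 and Star. Foxl2, Inhba, Inhbb, Fst, Nr5a1, Gja1 and Has2 lay above it in both, with means from 4.69 to 5.65, and did not pass. The summed level of 9 theca and stroma markers overlapped (7.53 to 7.73 and 7.54 to 7.85). The 1 that passed, 11.1% against 10.4% of all genes, was Pdgfra. It rose by 0.67 and lost the call in all 6 fits without an array. The summed level of 11 blood, immune and endothelial markers was lower in the mutant (8.16 to 8.32 against 8.57 to 8.64). The brightest of them, Pecam1, fell by 1.07, a call lost without wild-type replicate 1 or 3. The median difference of that list was -0.06. The part of these markers in the differences of the calcium genes was not tested.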

How the data were processed

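Array values of 3 wild-type and 3 Marf1-mutant oocyte samples were used as deposited by the authors: log2 probe set values with 2 decimals. GCOS, Affymetrix Expression Console 1.1 and RMA were used, per the submitters' processing notes. As deposited, arrays differed in median (4.56 to 4.76) and SD (2.04 to 2.20). The sources used here give no genome build for the array design.

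Of 35556 rows, 21789 named 1 gene, 1621 several (never used for naming) and 12146 were not named here; 21698 of the first matched RefSeq. For genes with several rows the highest mean was used.

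Genotypes were compared two-sided with limma 3.58.1 in R 4.3.3 (lmFit, eBayes, genotype only; prior degrees of freedom 3.65), Benjamini-Hochberg adjusted over all rows, and tested on simulated arrays. Alternatives were 16 settings of normalization, filter, row choice, variance prior, array weights, replicate block and arrays left out.

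Members and lists were chosen with earlier results of these data known. Named genes were the members, Marf1, up to 4 changed genes per list, and the 2 rows nearest each changed member.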

Additional observations from a re-analysis of the deposited data

How the results depend on the processing

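Trpv3 was past the threshold in all 15 settings that apply to genes with 1 row. Trpm7, short of it as deposited, passed after quantile (0.80, adjusted p = 0.0265) or cyclic loess normalization (0.99, 0.0177), among rows above the median level (0.83, 0.027), with 1 row per gene (0.83, 0.0161), with array weights (0.97, 0.00914) and without mutant replicate 3; over the fits without 1 array its difference ran from 0.66 to 1.05 and its adjusted p up to 0.183. Stim1 (0.54) passed among rows above the median level (adjusted p = 0.0433) and with 1 row per gene (0.0348), settings that test fewer rows. The 9 genes thus had 2 higher after either normalization or with array weights and 3 with either filter on rows, and 1 to 2 when an array was left out; 0 were lower in any setting. Itpr3 turned to -0.06 with array weights and ran from -0.13 to 0.16 with an array left out. Pdia4 turned to 0.06 (adjusted p = 0.918) with its dimmer row.

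The other pathway genes, 13 higher and 12 lower, numbered 8 and 6 with each array centred on its median, 6 lower after cyclic loess, 22 lower above the median level and 27 lower with 1 row per gene (16 higher). Leaving out 1 array gave 7 to 14 higher and 2 to 10 lower. Over all rows, 1700 higher and 1065 lower became 1071 to 1908 and 297 to 896 without 1 array; the lower count was 669 after median centring and 1646 above the median level. The share of higher calls, 61.5%, was 73.8% after cyclic loess.

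Same-numbered samples did not consistently deviate together (r = 0.147, -0.099 and 0.027 over rows). Both arrays numbered 1 correlated best with each other, but mutant replicate 2 correlated best with wild-type replicate 1 (0.140). The highest r was that of wild-type replicate 2 with mutant replicate 3 (0.183). With the replicate block 556 rows were lower (1390 higher), 5 pathway genes lower (10 higher), and 1 of the 9 genes was higher. The cause of these changes was not tested. No detection limit comes with the values. For genes little above the receptor-gene level, such as Itpr3, detection is therefore not known, since that level only describes a dim signal.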
